A study of Mus musculus with 3 samples.

Results

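The genes described here are 35 markers by which adult dorsal root ganglion (DRG) neurons are sorted into classes, apart from ion channels and peptides. They were listed by symbol and matched to 35 of the 41388 Ensembl genes in the deposited count tables. The matching used no measured value, but the list was drawn up with earlier results of these data known. RNA was sequenced from DRG cells of mouse embryos at 12.5 days post coitum, sorted by flow cytometry for an EGFP reporter of Ret, which encodes a tyrosine kinase that serves as receptor of the GDNF ligand family. All 3 libraries belong to the same group: C57BL/6 embryos of both sexes carrying the Ret reporter, with ganglia taken from lower thoracic to the first sacral levels. The pools held 340 ganglia of 17 embryos (library B), 300 of 15 (library C) and 60 of 3 (library D). The sample labels name the genotype as Tg(Ret-EGFP)SJ/, whereas the series text describes heterozygotes with EGFP placed in the Ret locus, and the embryos cannot be assigned to either form from these sources. Reporter-negative cells and later ages were not analysed here, so each value is a level within sorted pools and not a difference from other cells.

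Adult DRG neurons are divided into proprioceptors, which sense muscle stretch, low-threshold mechanoreceptors, which sense touch, and nociceptors and itch neurons, which sense noxious and pruritic stimuli. In the mouse, large-diameter mechanoreceptors and proprioceptors are born before most small-diameter nociceptors. An early set of Ret neurons becomes rapidly adapting mechanoreceptors, while many later Ret neurons turn into non-peptidergic nociceptors around birth. Several markers of the mature classes are therefore known to start at different times.

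Library C had the fewest counts, 11666241, and D the most, 20966139, and no pair of libraries was close enough to be a repeat deposit (chi-square per degree of freedom between 133 and 318 over at least 15726 genes). TPM, a count divided by gene length and scaled to the library's total, did not sit on the same scale in the 3 libraries. Over the genes at 1 TPM or more in every library, the median TPM of libraries B, C and D was 9.83, 9.92 and 18.1, a shift of 0.88 on the log2 scale in D. In D this moved with gene length: the log2 ratio of D to the other libraries correlated with length at a Spearman rho of 0.40 across 15727 genes, and genes are not independent replicates. Of 12 neuron markers 12 were detected, and the sensory neuron gene Isl1 stood at 591 ± 56.9 TPM (SD, n = 3). All 9 markers of glia and Schwann cell precursors were detected too, with a summed level of 3053, 1511 and 4812 TPM in libraries B, C and D, and so were 7 of 10 erythroid markers (2864, 1579 and 408 TPM). The spinal cord markers Olig2, Lbx1 and Dbx1 had no count in any library. In pools, fewer cells of a type and less RNA per cell cannot be told apart.

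A gene was taken as already on where it reached 1 TPM or more in every library. By that limit 15 of the 35 markers (42.9%) were on, against 28.7% of all 41388 genes and 50.2% of 21397 protein-coding genes. Another 3 markers, Necab1, Fam19a1 and Htr1f, crossed the limit in some libraries, and 17 stayed below it in all. By group, 3 of 4 broad neuronal markers, 2 of 3 proprioceptor markers, 6 of 11 mechanoreceptor markers and 2 of 3 other Fam19a genes were on. Of the receptors, 1 of 10 of nociceptors and itch neurons and 1 of 4 for serotonin 1D and opioids were on. These shares were not tested against each other. In mean TPM the 15 ran from Uchl1 through Rgs10, Shox2, Avil, Fam19a4, Spp1, Fam19a2, Necab2, Pvalb, Calb1, Cux2, Cadps2, Calb2 and Htr1d to Lpar3. Of the 14 neighbouring pairs in that order, 2 kept it in every library with ranges that did not overlap, Uchl1 above Rgs10 and Spp1 above Fam19a2. The other 12 pairs did not differ beyond the spread between libraries.

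**Figure D1:**
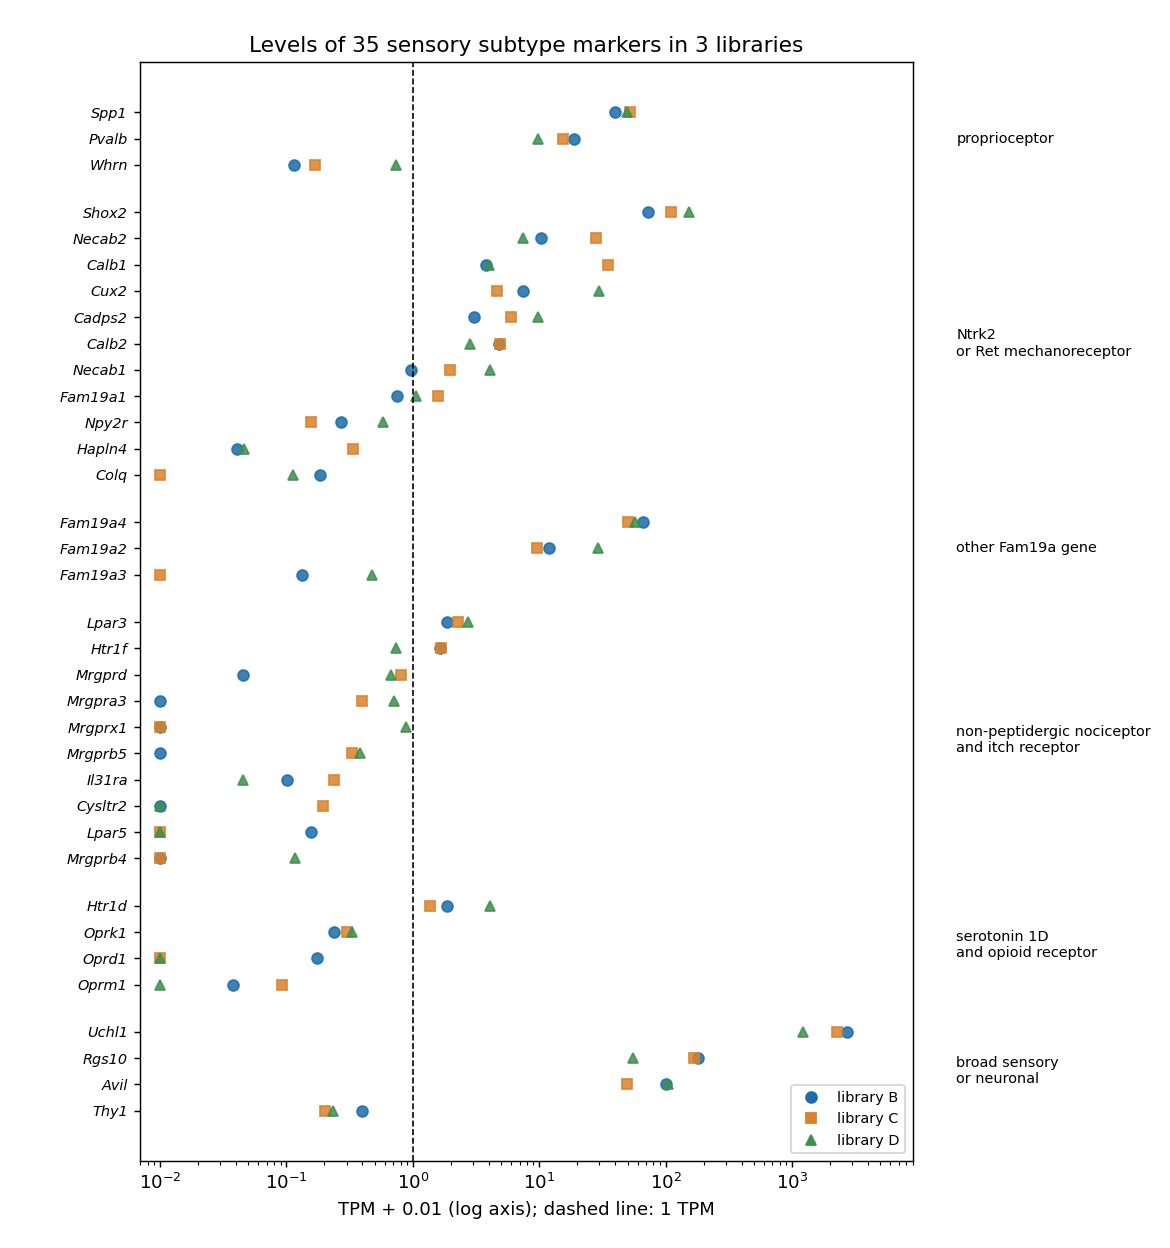
TPM of each of the 35 markers in library B (circles), C (squares) and D (triangles), grouped by the neuron class they mark, on a log axis with 0.01 added so that a count of 0 can be drawn; the dashed line is 1 TPM. The 8 markers left of the line in all libraries within the nociceptor and itch receptor group contrast with the broad markers, 3 of which lie at 49.4 TPM or higher.

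The promoters of these genes differ widely in CG dinucleotides, and 6 are printed to show that range among markers that were on and markers that were not. RefSeq windows (GRCm38.p6) were matched for 27 markers, the Fam19a genes through their present symbols. Where a gene had several, the window nearest its deposited 5′ end was used. Those not matched were Colq, Calb1, Calb2, Necab1, Hapln4, Mrgpra3, Oprk1 and Thy1. Each sequence is the 250 bases before the start site, 5′ to 3′ on the gene's strand, with every CG in capitals. Cadps2 (chr6:23839422-23839671, minus strand) and Avil (chr10:127000459-127000708, plus strand) were on. Oprd1 (chr4:132144487-132144736, minus strand) and Mrgprd (chr7:145314585-145314834, plus strand) were not. Lpar3 (chr3:146220711-146220960, plus strand) was on and its relative Lpar5 (chr6:125067670-125067919, plus strand) was not.
Cadps2: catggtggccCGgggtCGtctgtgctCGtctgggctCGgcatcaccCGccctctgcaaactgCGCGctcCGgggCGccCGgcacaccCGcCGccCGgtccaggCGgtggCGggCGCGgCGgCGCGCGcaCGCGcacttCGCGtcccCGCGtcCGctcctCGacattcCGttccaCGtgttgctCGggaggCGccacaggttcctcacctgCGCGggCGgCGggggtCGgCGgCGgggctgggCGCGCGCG
Avil: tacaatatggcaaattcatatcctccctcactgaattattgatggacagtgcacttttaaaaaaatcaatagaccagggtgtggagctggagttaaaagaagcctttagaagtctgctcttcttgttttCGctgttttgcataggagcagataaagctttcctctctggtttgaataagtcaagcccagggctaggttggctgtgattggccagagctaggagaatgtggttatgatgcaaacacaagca
Oprd1: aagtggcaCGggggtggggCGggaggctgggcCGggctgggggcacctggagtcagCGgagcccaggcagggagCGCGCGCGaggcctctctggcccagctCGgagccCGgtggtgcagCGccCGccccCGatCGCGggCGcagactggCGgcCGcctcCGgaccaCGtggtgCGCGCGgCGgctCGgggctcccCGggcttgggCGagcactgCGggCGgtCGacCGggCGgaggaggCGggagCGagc
Mrgprd: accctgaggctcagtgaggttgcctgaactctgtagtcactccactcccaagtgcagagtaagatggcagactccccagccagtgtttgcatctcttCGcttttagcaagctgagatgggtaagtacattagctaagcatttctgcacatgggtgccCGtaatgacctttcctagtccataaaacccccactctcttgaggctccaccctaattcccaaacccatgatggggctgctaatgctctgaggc
Lpar3: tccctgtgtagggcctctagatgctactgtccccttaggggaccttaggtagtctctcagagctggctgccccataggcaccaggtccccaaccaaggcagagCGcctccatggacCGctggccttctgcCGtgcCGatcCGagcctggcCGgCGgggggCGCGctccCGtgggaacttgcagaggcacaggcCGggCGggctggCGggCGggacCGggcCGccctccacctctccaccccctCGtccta
Lpar5: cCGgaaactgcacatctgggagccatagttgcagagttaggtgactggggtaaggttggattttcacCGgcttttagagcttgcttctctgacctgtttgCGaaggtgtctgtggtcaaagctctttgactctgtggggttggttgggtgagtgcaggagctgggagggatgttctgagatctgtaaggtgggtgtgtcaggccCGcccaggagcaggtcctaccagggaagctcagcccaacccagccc

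Cadps2 held 44 CG in its window, Oprd1 34, Lpar3 17, Lpar5 4, Mrgprd 2 and Avil 1. A high CG count thus stood before a marker that was on and a marker that was not, and so did a low one. Over the 13 matched markers that were on, the window held 1 to 44 CG with a median of 11. Over the 14 that were not on in every library it held 0 to 34 with a median of 4. At least 10 CG were found in 7 of the 13 and in 3 of the 14, Whrn, Npy2r and Oprd1. As a share this was 78.6% of 8637 matched protein-coding genes that were on, 24.0% of 8193 that were not, and 37.8% of all 32851 promoter windows. The motif TATAAA, searched on both strands, was present before Spp1, Shox2 and Mrgprb4. These were 11.1% of the matched markers, against 12.4% of all windows. It stood before 5.89% of the protein-coding genes that were on and 18.5% of those that were not. For the markers these shares were 15.4% and 7.14%. These counts describe the window only and were not tested. In 7 of the 27, Cux2, Fam19a3, Mrgprb4, Mrgprb5, Oprm1, Rgs10 and Uchl1, the window overlaps exon bases of the gene as deposited.

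**Figure D2:**
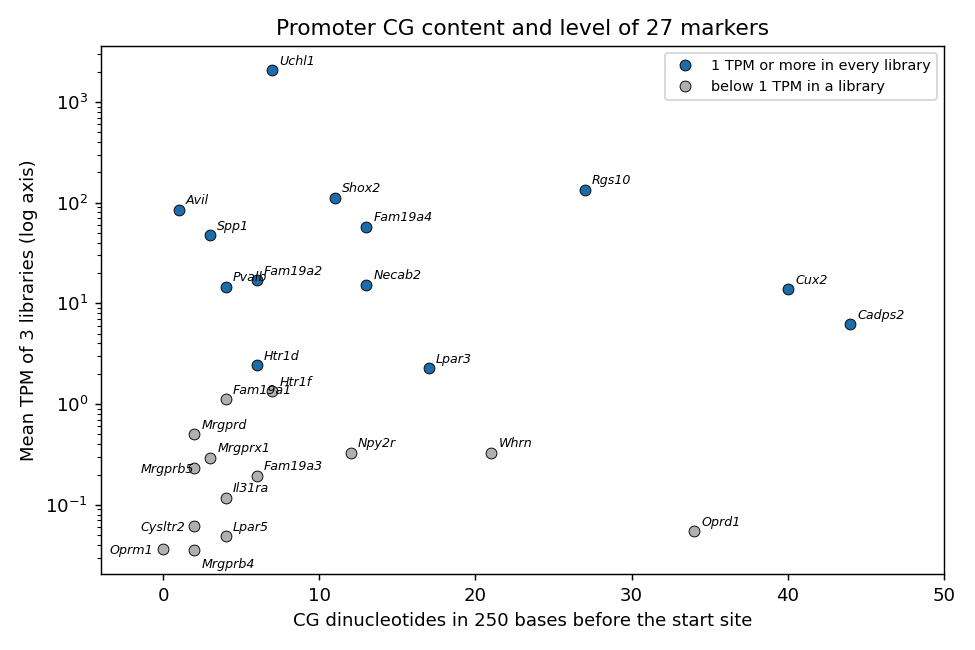
Number of CG dinucleotides in the 250 bases before the RefSeq start site (x axis) against mean TPM of 3 libraries (y axis, log scale) for 27 markers, blue where 1 TPM or more in every library and grey where not. Markers with few CG appear at both ends of the level axis, from Oprm1 with 0 CG to Uchl1 with 7.

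Of the broad neuronal markers, Uchl1, a deubiquitinating enzyme abundant in neurons, stood far above the rest. Libraries B, C and D gave 2744, 2269.8 and 1212 TPM, a mean of 2076 ± 784 (SD, n = 3), which placed it 43rd of all genes by mean TPM. Library D was the lowest of the 3 for Uchl1. It made up 83.8% of the summed TPM of all 35 markers in B, 80.6% in C and 69.6% in D. Its exons share 287 of 1616 bases with the antisense gene Uchl1os, whose own counts were 25, 14 and 1.

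Rgs10, a regulator of G protein signalling, had 182, 168 and 55.0 TPM in libraries B, C and D, a mean of 135 ± 69.5. As for Uchl1, B and C lay together and D below them. Avil, which encodes the villin family protein advillin and is a general marker of sensory neurons, was measured at 101, 49.4 and 104 TPM in B, C and D, a mean of 84.7 ± 30.6. Here C was the lowest. Avil shares 165 of its 3398 exon bases with Tsfm on the opposite strand, which had 1431, 1031 and 936 counts.

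Thy1, a glycolipid-anchored surface protein used to label mature projection neurons, was not on. Its counts were 6, 2 and 3 in libraries B, C and D, equal to 0.383, 0.192 and 0.224 TPM. In adult DRG this gene is widely used as a neuronal marker. The broad group thus held both the highest level of the list and a gene below the limit in every library.

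Both proprioceptor markers best known for that class were on. Spp1, the gene of the secreted phosphoprotein osteopontin, stood at 39.9, 52.5 and 49.6 TPM, a mean of 47.3 ± 6.61. The libraries lay close together, with the highest 1.32 times the lowest. With TPM scaled to equal medians of all detected genes they gave 49.1, 64.0 and 33.1, a range of 1.94 times with D the lowest. Spp1 is also a gene of macrophages and bone. Of 10 macrophage markers 5 were detected, with a summed level of 49.8, 42.5 and 35.8 TPM, none at 0 in all libraries and C1qb leading at 27.3, 25.1 and 16.6 TPM. Of 6 cartilage and bone markers 3 were detected, with sums of 16.2, 11.4 and 42.4 TPM and Acan at 0. The part of such cells in the Spp1 level was not tested.

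Pvalb, the calcium-binding protein parvalbumin, reached 18.9, 15.4 and 9.85 TPM, a mean of 14.7 ± 4.54. Whrn, the scaffold protein whirlin, was below the limit, with 7, 7 and 41 counts, or 0.106, 0.159 and 0.725 TPM. Pvalb and Spp1 had no overlap with Whrn in any library.

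Among the mechanoreceptor markers the homeobox gene Shox2 led. Shox2, a transcription factor of the Ntrk2 lineage, gave 72.7, 110.5 and 153 TPM in libraries B, C and D, with a mean of 112 ± 39.9. With TPM scaled so that the median gene was equal in the 3 libraries, Shox2 stood at 89.4, 135 and 102, so D was no longer highest. Cux2, another homeobox factor of mechanoreceptors, was measured at 7.43, 4.62 and 29.6 TPM, a mean of 13.9 ± 13.7 set largely by D. Every library had more Shox2 than Cux2 (3 of 3), with a mean log2 ratio of 3.41 ± 1.11 (SD, n = 3; exact two-sided sign-flip p = 0.25, adjusted 0.38 over the 3 pairs tested). A p of 0.25 is the smallest that 3 libraries allow, so no ratio of this kind can pass 0.05. Shox2 shares 153 of 3263 exon bases with Rsrc1 on the opposite strand.

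The calcium-binding members differed from each other and between libraries. Calb1, which encodes calbindin, stood at 3.78, 35.3 and 4.02 TPM in libraries B, C and D. C stood apart, while B and D nearly coincided. Calb2, which encodes calretinin, was measured at 4.81, 4.90 and 2.81 TPM, a mean of 4.17 ± 1.18. Calb1 was the higher in 2 of 3 libraries. Their log2 ratios of -0.35 (B), 2.85 (C) and 0.51 (D) had a mean of 1.01 ± 1.66 (exact two-sided sign-flip p = 0.50, adjusted 0.50). Without C the mean ratio was 0.083, so the order of calbindin and calretinin rested on that library.

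Necab2, a neuronal EF-hand protein, gave 10.4, 28.2 and 7.43 TPM, again highest in C. Its relative Necab1 was measured at 0.953, 1.94 and 4.09 TPM and so fell just short of the limit in B, where it had 45 counts. Necab2 was the higher in every library, and in D the gap was narrowest. Necab1 shares 410 of its 5237 exon bases with Gm11837 on the opposite strand, which had 4, 18 and 6 counts.

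Cadps2, which acts in the release of dense-core vesicles, gave 3.02, 6.01 and 9.70 TPM, a mean of 6.25 ± 3.35. Fam19a1, a secreted chemokine-like protein of large-diameter neurons, was measured at 0.737, 1.58 and 1.05 TPM and lay at the limit. The remaining mechanoreceptor markers were below it in all libraries. Npy2r, a neuropeptide Y receptor of rapidly adapting mechanoreceptors, had 8, 3 and 15 counts. Hapln4, a hyaluronan link protein of perineuronal matrix, had 1, 7 and 1. Colq, the collagen tail of acetylcholinesterase, had 6, 0 and 3.

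The other Fam19a genes encode related secreted proteins, also named TAFA. Fam19a4, in the adult a marker of C-fibre low-threshold mechanoreceptors, stood at 65.8, 50.1 and 57.8 TPM in libraries B, C and D, a mean of 57.9 ± 7.85. Its highest library was 1.31 times the lowest, about the same range as for Spp1. With TPM scaled to equal medians it ran from 38.5 in D to 80.9 in B, a range of 2.10 times, against 1.51 for Shox2 and 1.54 for Lpar3. Slc17a8, the vesicular glutamate transporter of the same adult class, had a single count, in C. Th, a marker of that class and also of sympathetic cells, was on at 62.1, 29.3 and 16.4 TPM in B, C and D. The part of sympathetic cells in the Th level was not tested.

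Fam19a2 gave 12.0, 9.55 and 29.3 TPM, highest in D, with a mean of 16.9 ± 10.7. Fam19a4 was above it in every library (3 of 3), with a mean log2 ratio of 1.94 ± 0.83 (exact two-sided sign-flip p = 0.25, adjusted 0.38). Fam19a3 had 5, 0 and 16 counts and was below the limit throughout. Fam19a5, which is not among the markers, was measured at 18.7, 56.6 and 22.5 TPM. The family therefore held levels from under 0.5 TPM for Fam19a3 to above 50 TPM for Fam19a4.

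**Figure D3:**
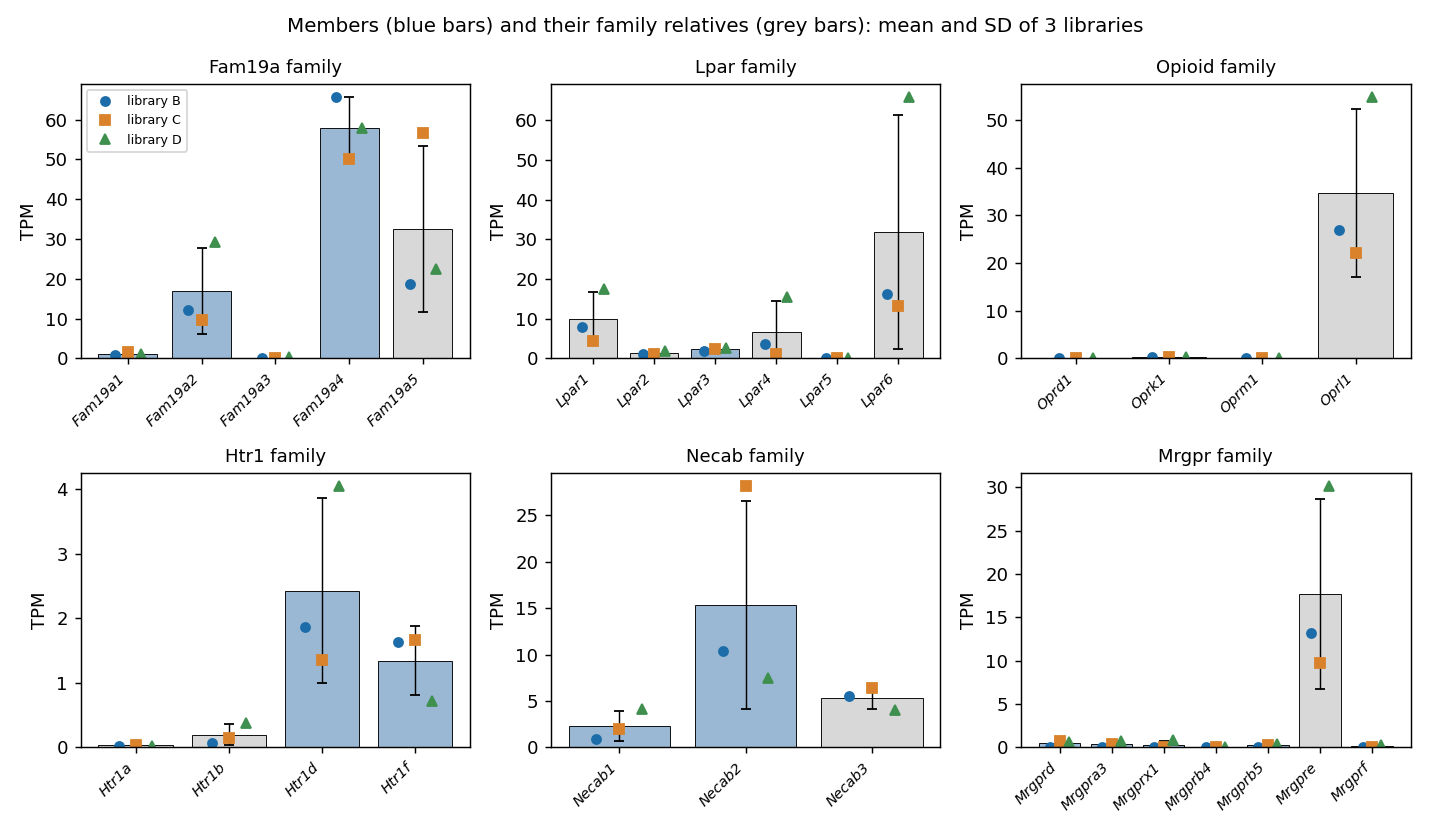
TPM of markers (blue bars) and of relatives from the same gene family (grey bars); bars are means and error bars SD of 3 libraries, and points are the single libraries. In the opioid and Mrgpr panels the tall bar is a relative, Oprl1 at 34.7 ± 17.7 TPM and Mrgpre at 17.7 ± 10.9 TPM, and each marker lies below 1 TPM.

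Receptors of mature non-peptidergic nociceptors and itch neurons were nearly all below the limit. Lpar3, a receptor for lysophosphatidic acid, was on, at 1.87, 2.27 and 2.71 TPM in libraries B, C and D, a mean of 2.28 ± 0.419 from 34 to 52 counts. Htr1f, a serotonin receptor, was measured at 1.64, 1.66 and 0.724 TPM from 37, 25 and 14 counts. It was above the limit in B and C and below it in D. Lpar5 had 2 counts in B and none in C or D.

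The 5 Mrgpr markers encode Mas-related G protein-coupled receptors, which in the adult detect pruritogens and other ligands. Mrgprd, the beta-alanine receptor of polymodal nociceptors, had 1, 15 and 16 counts in libraries B, C and D, or 0.036, 0.802 and 0.666 TPM. Mrgpra3, a chloroquine receptor, had 0, 3 and 7 counts. Mrgprx1 had 0, 0 and 8, Mrgprb5 0, 2 and 3, and Mrgprb4 0, 0 and 1. Counts for all 5 were thus highest in D, the most deeply sequenced library, and lowest in B for Mrgprd, Mrgpra3 and Mrgprb5. Il31ra, a subunit of the interleukin-31 receptor, had 3, 5 and 1 counts, and Cysltr2, a cysteinyl leukotriene receptor, 0, 2 and 0.

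Mrgpra3, Mrgprx1, Mrgprb4 and Mrgprb5 belong to a cluster of copies on chromosome 7, between positions 47588950 and 48199288 in the deposited gene models. In their longest GENCODE M21 transcripts, 7.14%, 5.84%, 1.45% and 0.81% of 50-base windows also occur in the transcripts of another gene. Reads from such windows cannot be assigned with certainty, and most windows of each gene were not shared. Of 15 relatives in the Mrgpr family list, counting Mas1, Mrgpre alone was on, at 13.2, 9.71 and 30.2 TPM. No count was found for 9 of them. Mrgpre is thus the Mas-related receptor that was measured above the limit.

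Of the 4 serotonin 1D and opioid receptors, Htr1d, the target of triptan drugs, was on at 1.87, 1.35 and 4.05 TPM, a mean of 2.43 ± 1.43. D was the highest. The 3 classical opioid receptors were not on. Oprk1, the kappa receptor, had 14, 12 and 17 counts and stood at 0.227, 0.293 and 0.322 TPM. Oprm1, the mu receptor, had 2, 4 and 0 counts, and Oprd1, the delta receptor, 6, 0 and 0. In contrast the nociceptin receptor gene Oprl1, a relative outside the list, was measured at 27.0, 22.2 and 54.9 TPM.

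The 17 markers below the limit in every library reached at most 41 counts and 0.88 TPM. Of these, 10 had no count in at least 1 library and 4 had 3 counts or fewer in every library. A count of 0 leaves room for a level up to that of 3 counts. Over these genes and libraries 3 counts equal 0.041 to 0.482 TPM, depending on gene length and depth. Lower levels could still yield a count, as for Oprm1 with 2 counts, or 0.028 TPM, in B. Such limits cover counting error only. Among relatives of the markers in the same families, 10 of 33 were on, led by Uchl3 at 279 ± 102 TPM, Cadps at 34.7 ± 16.6 and Oprl1. Of 30 other DRG class markers, 23 were on, led by Ldhb at 754 ± 195 TPM.

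To ask how far the markers varied between pools, each library was set against the other libraries with edgeR's quasi-likelihood test. The filter on low counts left 23 of the 35 markers, because a gene could pass on its level in a single library. Each fit leaves 1 residual degree of freedom, and the single library is taken to vary as the other libraries do. In B, 0 of 15727 genes (0%) passed at adjusted p 0.05, and 0 of 23 markers. At an unadjusted p under 0.05 there were 174 genes and 0 markers, and DESeq2 called 1 gene, not a marker. In D, again 0 genes (0%) passed and 0 markers. That outcome changed with the setting, since DESeq2 and a fit with no filter did call genes and markers there. The median absolute log2 ratio in D was 0.79 for the markers and 0.85 over all genes tested. In C, 123 genes (0.782%) passed, 119 higher and 4 lower, and 1 of 23 markers.

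The marker that passed in C was Calb1, with 165, 1027 and 150 counts in libraries B, C and D. It was higher in C by 3.58 ± 0.88 on the log2 scale (approximate SE; edgeR adjusted p = 0.011). The call held with the trend in gene length removed (log2 ratio 3.76, adjusted p = 6.2e-05), with DESeq2 (adjusted p = 0.0027) and with no filter (adjusted p = 0.032). Necab2 had the next largest ratio in C among markers that were on, 1.99 ± 0.88, which did not pass (adjusted p = 0.56). The 119 genes called higher in C had a median transcript GC content of 56.4%, against 49.6% for all genes tested. Calb1 itself has a GC content of 36.8% and Necab2 63.6%. The summed glial markers were lowest in C, at 1511 TPM. The part of base composition or of glial cells in either value was not tested.

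In D the markers with the smallest p were Rgs10 and Uchl1, lower by log2 ratios of -2.37 ± 0.48 and -1.75 ± 0.37 (edgeR adjusted p = 0.17 for both). With the length trend removed the ratios were -1.79 and -1.14. DESeq2 called both (adjusted p = 0.0056 and 0.0497). Of the 12 neuron markers, 6 were lowest in D and 5 highest there. Tubb3, which led that list, gave 17901, 9716 and 9265 TPM, while Map2 gave 6.92, 7.78 and 34.1. Summed, the list stood at 36563, 29036 and 22865 TPM. The sums of the macrophage, erythroid, sympathetic and motor neuron markers were also lowest in D. Those of the sensory neuron, glial, mesenchymal, and cartilage and bone markers were highest in D. The glial sum in D was 4812 TPM. For the sensory neuron markers the sum was 1054, 969 and 1494 TPM in B, C and D, but the median 46.0, 80.4 and 26.0. The part of any of these cells in the Rgs10 and Uchl1 values was not tested. Cux2 had a log2 ratio of 1.60 ± 0.49 in D (adjusted p = 0.20), which came to 0.90 with the length trend removed.

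Over the 23 markers tested, the fits of B, C and D had a median log2 ratio of -0.17, 0.46 and -0.32, beside -0.18, -0.11 and -0.017 over all genes tested. Some of the 23 passed the filter on the level of a single library, as Fam19a3 did with 5, 0 and 16 counts in libraries B, C and D. The direction of such a marker was partly fixed by the filter. The number of markers higher in each fit is therefore not given, and the medians share this limit. The median ratio of the highest to the lowest library was 2.26 for the 15 markers that were on and 2.35 for the 11896 genes that were on. Of these 15 markers, 4 were highest in B, 4 in C and 7 in D, but 5, 7 and 3 with TPM scaled to equal medians. Libraries were shared between the 3 fits, so their values are not independent.

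**Figure D4:**
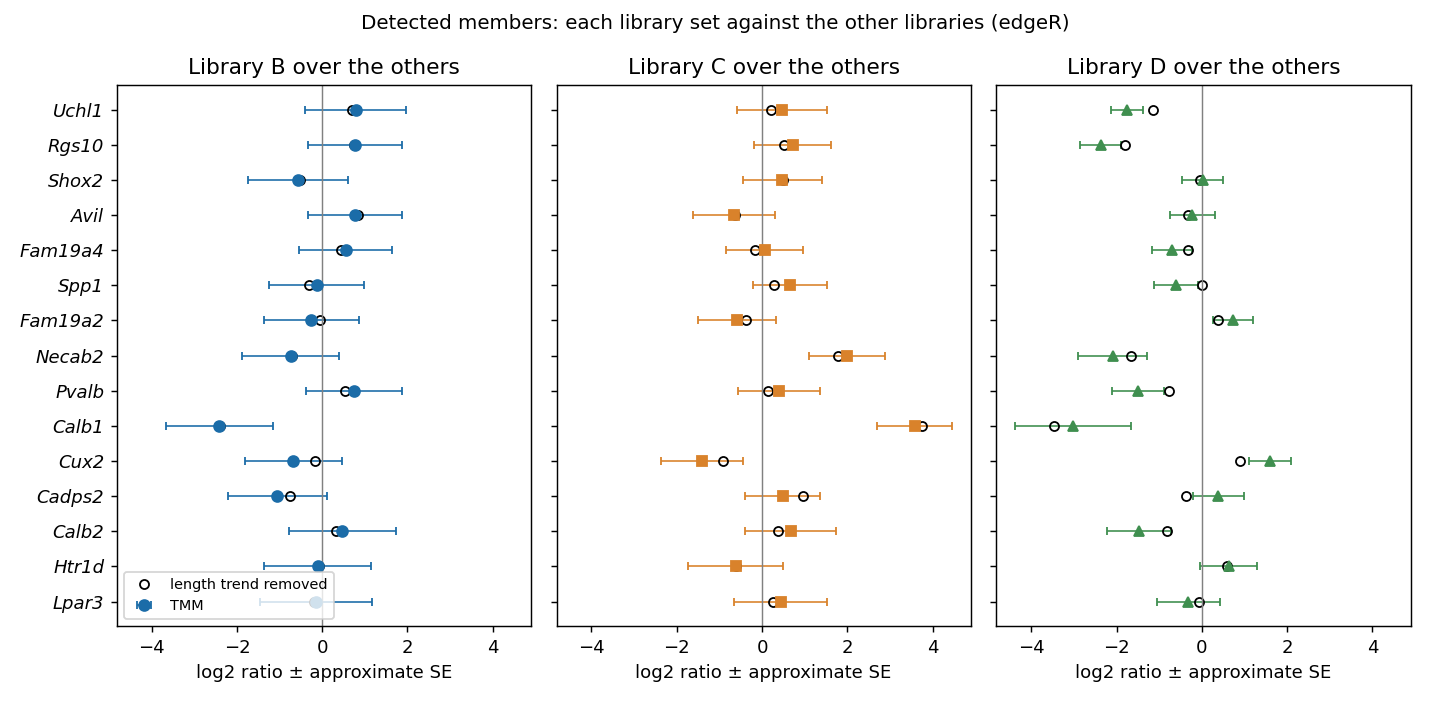
Log2 ratio of each library to the other libraries for the 15 markers at 1 TPM or more throughout, in order of mean TPM; filled symbols are the edgeR fit with approximate SE bars and open circles the fit with the trend in gene length removed. Calb1 in C lies farthest to the right at 3.58, and in D Uchl1 and Rgs10 lie left of 0 in both fits.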

How the data were processed

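Each sorted pool gave 1 library, prepared with a low-input cDNA kit per the labels' protocols. The authors deposited raw read counts per gene, with CPM and RPKM; tested on the tables, CPM equals the count over the file total and RPKM that CPM over length in kilobases. Subread, featureCounts 1.4.5 and the build GRCm38.p2 are named in the submitters' processing notes. Annotation release, strand setting and read filters were not given in the sources used here. Symbols were matched for 40254 of 41388 genes.

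TPM was computed from count and length. Fits used the quasi-likelihood test of edgeR 4.0.16 after filterByExpr and TMM scaling. P-values were adjusted by Benjamini-Hochberg over all genes (threshold 0.05), and DESeq2 1.42.0 was an alternative. The fits were also run on simulated counts with large planted changes and no length trend. That run does not show how the fits behave on these libraries. All markers are named, with values per library where any library reached 1 TPM; of other lists, the 3 highest genes and those a result turns on. The markers and lists were chosen with earlier results of these data known. Nothing states that pools are biological replicates beyond different mothers. In each fit the single library was judged against variation estimated from the other libraries, with information shared over genes. The p-values therefore speak of these pools only. Windows of 50 bases and GC content came from GENCODE M21 transcripts.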

Additional observations from a re-analysis of the deposited data

How the results depend on the processing

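Markers that were on numbered 15 at 1 TPM and 9 at 5 TPM, where Cux2, Calb1, Calb2, Cadps2, Lpar3 and Htr1d were lost. Over all genes the number fell to 7151, or 17.3%. With the deposited RPKM 13 were on, without Lpar3 and Htr1d, against 23.9% of all genes. At 10 counts or more 19 were on, against 31.3% of all genes. The 15 remained in every setting but those with 5 TPM and RPKM. Leaving out a library gave 15 to 17, against 29.3% to 30.7% of all genes. TPM scaled to equal medians, chosen after seeing the data, gave 16, adding Necab1, against 29.1% of all genes. The markers are all protein-coding, and at 1 TPM 50.2% of protein-coding genes were on, against 42.9% of the markers. That share is not given for the other settings, so the shares over all genes do not show an excess of markers. In C the genes called rose to 284 with the length trend removed. In D their number was 8 under DESeq2's size factors, 6 with the length trend removed, 1534 with no filter and 688 with DESeq2, and markers to 5 with no filter (Cux2, Calb1, Necab2, Rgs10 and Uchl1) and 3 with DESeq2 (Calb1, Rgs10 and Uchl1); the cause was not tested. In B DESeq2 called 1 gene. With 1 library against 1, a value with no test, the median log2 ratio of the markers ranged from -0.12 to 0.14 in B, where it changed sign without C, from 0.12 to 0.54 in C and from -0.54 to -0.14 in D. Of the markers that were on, 5 had a mean that moved by over 1.5 times without a library: Calb1 from 14.4 to 3.90 TPM and Necab2 from 15.3 to 8.90 without C, and Cux2 from 13.9 to 6.02, Fam19a2 from 16.9 to 10.8 and Htr1d from 2.43 to 1.61 without D. Calb1, named above for D, had a DESeq2 log2 ratio of -3.01 there, with C among the libraries D was set against. Libraries B, C and D gave 3.78, 35.3 and 4.02 TPM of Calb1, so D was not below B. Scaled to equal medians they gave 4.64, 43.1 and 2.68, with D below B. On both scales C stood far above B and D, so the ratio does not show a level peculiar to D. No paired analysis was possible because the libraries form a single group. Levels under about 0.5 TPM rest on few counts.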

Other observations

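Of the 30 other DRG class markers 23 were on, and those named here were picked from that list. Some were on while receptors of mature nociceptors and itch neurons were not. Nppb, a peptide of itch neurons, stood at 10.9, 7.69 and 6.31 TPM in libraries B, C and D, while Il31ra and Cysltr2, receptors of that class, had 5 counts or fewer in each library. Plxnc1, a semaphorin receptor of non-peptidergic nociceptors, stood at 4.09 ± 2.42 TPM (SD, n = 3) and the sodium channel gene Scn10a at 2.20 ± 0.71, whereas Mrgprd stayed below 1 TPM. Piezo2, the channel of touch and proprioception, stood at 8.02 ± 3.03 TPM and Nefh, a neurofilament of large neurons, at 13.9 ± 1.87. Runx1, a factor of non-peptidergic nociceptors, was below the limit at 0.366, 0.522 and 0.362 TPM. Also not on were Osmr, with 1, 7 and 18 counts in libraries B, C and D, and the channel genes Scn11a, Trpv1, Trpa1 and Trpm8. Class markers other than the receptors thus lay on both sides of the limit.

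Mafa, a transcription factor of early Ret mechanoreceptors, gave 1.23, 15.4 and 1.20 TPM, and was picked after its values were seen. It was highest in the library in which Calb1 and Necab2 were highest. Cnr1, a cannabinoid receptor, was highest in D, at 37.0 TPM against 6.88 in B and 7.09 in C, and was also picked after its values were seen.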
